A study of Danio rerio with 6 samples.

Results

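Protocadherin genes of the zebrafish were followed in RNA from whole larvae. The members were all genes whose symbol starts with pcdh, read without regard to case, and 57 of the 32520 genes in the deposited tables were analysed under this rule. A member was kept when it reached 0.2 TPM (the deposited unit of transcript abundance, scaled for length and to the same total in every library) in at least 3 of 6 libraries. This kept 56 members, each of which reached the minimum in libraries of both groups. The member not kept was pcdh2ab11, a short alpha record of 2.4 kb on chromosome 14, with 0.0508, 0.158 and 0.216 TPM in libraries labelled +/+ and 0.143, 0.215 and 0.183 TPM in those labelled -/-. One further gene of the family was not analysed here.

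The study compared larvae carrying mutations in both zebrafish copies of STIM2, an endoplasmic reticulum protein that senses stored calcium and opens ORAI channels. One group of 3 libraries was labelled (stim2a;stim2b)+/+ and the other group of 3 was labelled (stim2a;stim2b)-/-, with replicate numbers 1 to 3 in each. All larvae were untreated and 5 days post fertilization, and each library was made from polyadenylated RNA of 30 pooled whole larvae. No label says that the pools of a group are separate clutches, and the p-values then measure only how far these pools spread.

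Protocadherins are cadherin-related membrane proteins by which cells recognise one another, and in vertebrates most of them are found in the nervous system. Clustered protocadherins sit in tandem arrays in which each variable exon has its own promoter and, in the alpha and gamma subfamilies, is spliced to shared constant exons. A neuron thereby shows a combination of isoforms that marks it as itself. Non-clustered members, the delta-1 and delta-2 groups among them, are single genes that act in axon growth, cell sorting and movement. Delta-1 tails can bind protein phosphatase 1, and several delta-2 tails recruit the WAVE complex, which drives actin branching.

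RNA of the mutated genes went against the labels. The stim2a gene (chr1:14466860-14488074, in coordinates as deposited, for which the submitters' processing notes name danRer11) had 0.329, 0.252 and 0.403 TPM in libraries labelled +/+ and 1.31, 1.41 and 1.20 TPM in those labelled -/-, a log2 fold change of 1.13 ± 0.13 (SE; limma, adjusted p = 0.00263). The stim2b gene (chr7:62320134-62439872) had 0.543, 0.475 and 0.722 TPM against 1.52, 1.35 and 1.85 TPM, a log2 fold change of 0.94 ± 0.15 (limma, adjusted p = 0.00981). For both genes an exact two-sided permutation test on TPM returned p = 0.1, below which 3 against 3 libraries cannot go. Neither gene overlapped between the groups, and both were higher where the label says mutant. Without replicate 2 labelled +/+ the stim2b value was 0.87 with an adjusted p of 0.0536 in limma. The deposited abundance tables also carry names that give the genotypes the opposite way to the sample labels. The groups are therefore called libraries labelled +/+ and libraries labelled -/-, and every direction below follows the labels as deposited. Whether the labels of the genotypes were swapped was not tested. If they were, every direction below would be reversed with respect to genotype.

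Of the 20 kept members outside the tandem arrays, 14 were higher in libraries labelled -/- and 0 were lower (limma on log2(TPM + 0.5), adjusted p under 0.05 over all 23758 genes tested). Of the 36 kept members inside the arrays, 13 were higher and 0 were lower. Among all genes tested 26.7% were called higher and 8.5% lower, so that the share of clustered members lay nearer to the background than that of the others. The median log2 fold change was 0.79 over the non-clustered members and 0.47 over the clustered members, beside 0.19 over all genes tested. The values of the 2 groups did not overlap, with libraries labelled -/- higher, for 37 of the 56 members. The same was true of 36.6% of all genes, and 16.2% of all genes stood apart in the lower direction, which no member did. A fold change here is on the log2(TPM + 0.5) scale, labelled -/- minus labelled +/+, and understates the change of low genes.

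**Figure D1:**
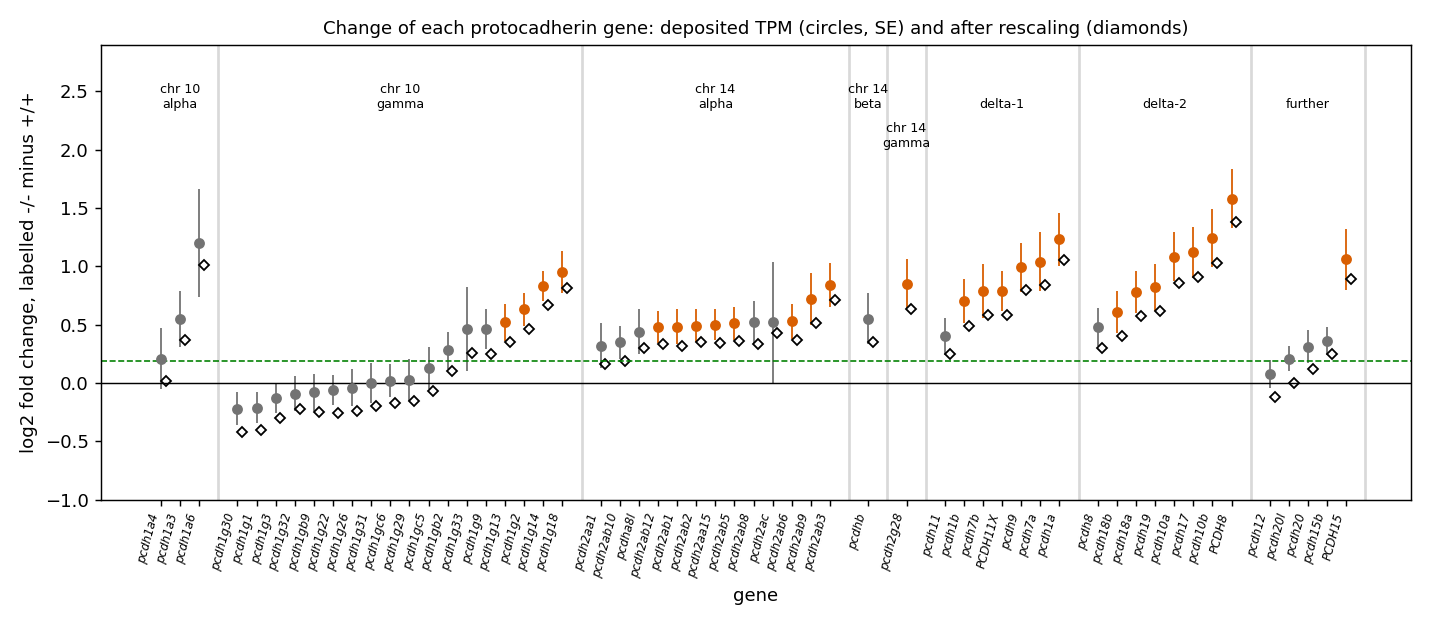
Log2 fold change of each of the 56 kept protocadherin genes on the log2(TPM + 0.5) scale, libraries labelled -/- minus libraries labelled +/+. Circles with SE bars show deposited TPM, orange where the limma call passed an adjusted p of 0.05; diamonds show the values after each library was divided by its median gene ratio. The dashed line at 0.19 is the median of all genes tested. Delta-1 and delta-2 members lay between 0.40 and 1.58, whereas 8 of the 18 gamma members of chromosome 10 lay below 0.

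Because most genes were shifted upward, the comparison was repeated after dividing each library by its median ratio over genes, with factors from 0.876 to 1.155. The median of all genes was then 0.00, with 19.7% called higher and 19.9% lower. Non-clustered members gave 14 higher and 0 lower under this scaling. Clustered members gave 8 higher and 2 lower, the 2 lower being pcdh1g1 and pcdh1g30 of the chromosome 10 gamma array. Quantile scaling gave 13 higher and 0 lower among non-clustered members and 8 higher and 4 lower among clustered members, beside 18.3% and 18.6% of all genes. The 4 lower records were pcdh1g1, pcdh1g3, pcdh1g22 and pcdh1g30, all in the chromosome 10 gamma array.

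Most calls were lost when replicate 1 or 2 labelled +/+ was left out. Without replicate 1 labelled +/+, limma called 1 clustered and 1 non-clustered member, beside 1.69% of all genes called higher and 1.64% lower. Without replicate 2 labelled +/+ it again called 1 of each, beside 1.26% higher and 1.5% lower. The members still called in both cases were pcdh1g14, at adjusted p-values of 0.0384 and 0.0477, and PCDH8, at 0.0386 and 0.0473. Without replicate 2 or 3 labelled -/-, limma called 8 or 5 clustered and 14 or 11 non-clustered members higher and 0 lower, beside 27.2% or 12.9% of all genes higher and 6.89% or 5.29% lower. Fold changes stayed positive for all 20 non-clustered members in each of the fits that left out 1 library.

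Delta-2 protocadherins were higher in libraries labelled -/- for 7 of 8 members, beside 26.7% of all genes. None of the 8 overlapped between the groups, all with libraries labelled -/- higher, beside 36.6% of all genes. Their summed level was 39.4, 41.6 and 59.9 TPM in libraries labelled +/+ and 86.5, 82.8 and 125.5 TPM in those labelled -/-. The ratio of the group means was 2.09, and it was 1.79 after rescaling by the median gene ratio.

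The largest fold change of any member was that of a gene annotated with the family symbol PCDH8 (ENSDARG00000102185.2, chr9:53707240-53719543, plus strand), which lies close to zebrafish pcdh8 on the same chromosome. It had 2.50, 1.58 and 2.57 TPM in libraries labelled +/+ and 6.80, 5.69 and 10.9 TPM in those labelled -/-. Every library labelled -/- was well above the highest labelled +/+. The log2 fold change was 1.58 ± 0.25 (limma, adjusted p = 0.00958), and the call was made under all 18 settings tried. With coverage in place of TPM the log2 fold change of PCDH8 was 1.25 (limma, adjusted p = 0.0182). That was still the largest of the members, but close to pcdh10b at 1.18. The neighbouring pcdh8 (chr9:53654866-53666031, minus strand), the paraxial protocadherin of somite and mesoderm movements, had 1.34, 1.90 and 1.68 TPM against 2.14, 2.31 and 3.02 TPM. Its libraries also stood apart, by a smaller log2 fold change of 0.48 ± 0.16 that missed the threshold (limma, adjusted p = 0.0538).

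Protocadherin 10 binds a WAVE complex subunit and guides axons in the mouse forebrain. The copy pcdh10a (chr1:12763461-12797410) had the highest TPM of the non-clustered members, with 8.95, 9.60 and 14.0 TPM in libraries labelled +/+ and 19.2, 21.5 and 29.8 TPM in those labelled -/-. The log2 fold change was 1.08 ± 0.21 (limma, adjusted p = 0.0149). Read from coverage, put on the TPM scale, pcdh10a had a mean level of 10.5 and came after pcdh17 at 14.4. The copy pcdh10b (chr14:42978695-43000836) had 4.87, 5.23 and 8.63 TPM against 13.7, 12.0 and 20.5 TPM, a log2 fold change of 1.24 ± 0.25 (limma, adjusted p = 0.0163). Both copies were above every library labelled +/+ in all 3 libraries labelled -/-, and replicate 3 was the highest library of each group for both.

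Protocadherin 17, which brings WAVE to contacts between axons in the mouse, was next in TPM. The pcdh17 gene (chr11:32576300-32723851) had 7.39, 7.69 and 11.5 TPM against 16.8, 17.1 and 25.9 TPM. Replicates 1 and 2 were close to each other in each group and replicate 3 stood above them, with no overlap between the groups. The log2 fold change was 1.12 ± 0.22 (limma, adjusted p = 0.0147).

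Protocadherin 19 organises columns of neurons in the zebrafish optic tectum, and its human gene is mutated in an epilepsy. The pcdh19 gene (chr14:40300961-40390757) had 3.43, 3.996 and 5.23 TPM in libraries labelled +/+ and 7.43, 6.24 and 9.97 TPM in those labelled -/-. The groups did not overlap, and the log2 fold change was 0.82 ± 0.20 (limma, adjusted p = 0.0233).

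Protocadherin 18 is present in zebrafish as a pair of copies. The copy pcdh18a (chr1:13260809-13271569) had 4.70, 4.69 and 6.63 TPM against 8.67, 8.09 and 11.8 TPM, a log2 fold change of 0.78 ± 0.18 (limma, adjusted p = 0.0220). The copy pcdh18b (chr14:42172257-42179789) had 6.27, 6.92 and 9.66 TPM against 11.8, 9.93 and 13.7 TPM, a log2 fold change of 0.61 ± 0.18 (limma, adjusted p = 0.0364). For pcdh18b the highest library labelled +/+ came close to the lowest labelled -/-, and its adjusted p was 0.0510 under quantile scaling.

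Delta-1 protocadherins were higher in libraries labelled -/- for 6 of 7 members, beside 26.7% of all genes. None of the 7 overlapped between the groups, all with libraries labelled -/- higher, beside 36.6% of all genes. Their summed level was 23.2, 22.5 and 32.1 TPM against 43.8, 40.4 and 65.2 TPM, with a ratio of group means of 1.92, or 1.64 after rescaling.

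Protocadherin 1 had the largest fold change of the group. The copy pcdh1a (chr10:20920364-21054059) had 1.25, 1.34 and 2.01 TPM in libraries labelled +/+ and 3.71, 3.32 and 5.99 TPM in those labelled -/-, a log2 fold change of 1.23 ± 0.23 (limma, adjusted p = 0.0142). This gene is a single gene on the minus strand of chromosome 10 and is distinct from the clustered alpha genes pcdh1a3, pcdh1a4 and pcdh1a6. The copy pcdh1b (chr14:37545341-37831941) had 5.13, 4.87 and 6.60 TPM against 9.44, 7.11 and 11.6 TPM, a log2 fold change of 0.70 ± 0.19 (limma, adjusted p = 0.0297). The groups did not overlap for either copy, although pcdh1b in replicate 2 labelled -/- was only a little above replicate 3 labelled +/+.

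Protocadherin 7 carries a tail that binds protein phosphatase 1. The copy pcdh7a (chr1:15137901-15203357) had 2.83, 2.77 and 4.54 TPM against 6.64, 5.73 and 10.3 TPM, a log2 fold change of 1.04 ± 0.25 (limma, adjusted p = 0.0219). The copy pcdh7b (chr7:63324888-63570206) had 6.26, 6.07 and 9.08 TPM against 10.8, 10.4 and 17.5 TPM, a log2 fold change of 0.79 ± 0.23 (limma, adjusted p = 0.0341). Replicate 3 was the highest library of each group for both copies and did not cross into the other group.

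Protocadherins 9 and 11 complete the delta-1 group. The pcdh9 gene (chr6:4872883-4984243) had 1.59, 1.59 and 2.16 TPM against 3.32, 3.37 and 5.69 TPM, a log2 fold change of 0.99 ± 0.21 (limma, adjusted p = 0.0182). Protocadherin 11 was split over overlapping records on the minus strand of chromosome 14, whose reads may be shared. The record with the family symbol PCDH11X (ENSDARG00000098652.3, chr14:27120406-27297123) had 5.09, 5.11 and 6.63 TPM against 8.70, 9.29 and 12.4 TPM, a log2 fold change of 0.79 ± 0.17 (limma, adjusted p = 0.0170). The record named pcdh11 (chr14:26995114-27121854) was lower in level, at 1.01, 0.734 and 1.05 TPM against 1.23, 1.24 and 1.70 TPM. It too stood apart between the groups, with a log2 fold change of 0.40 ± 0.16 that missed the threshold (limma, adjusted p = 0.0765).

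Among the 5 further members, 1 was higher in libraries labelled -/- and 0 lower, beside 26.7% and 8.5% of all genes. Protocadherin 15 forms the lower part of the tip link that opens the mechanotransduction channel of hair cells. The record PCDH15 (ENSDARG00000008127.12, chr12:6566233-6905375) had 0.782, 1.40 and 1.43 TPM in libraries labelled +/+ and 2.55, 2.30 and 4.51 TPM in those labelled -/-, with no overlap and a log2 fold change of 1.06 ± 0.26 (limma, adjusted p = 0.0228). Beside it on the same strand, pcdh15b (chr12:6542789-6551681) had 0.330, 0.455 and 0.361 TPM against 0.588, 0.597 and 0.710 TPM. That was a log2 fold change of 0.36 ± 0.12 with an adjusted p of 0.0525 in limma, just over the threshold.

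Other further members had small differences. The pcdh20l gene (chr14:14568437-14573041) was the highest of them in level, at 8.18, 8.74 and 9.85 TPM against 10.4, 9.62 and 11.2 TPM, and the groups overlapped. The log2 fold change was 0.21 ± 0.11 on deposited TPM and -0.0032 after rescaling. The pcdh20 gene (chr11:42910904-42918971) had 2.43, 2.60 and 2.91 TPM against 2.97, 3.37 and 3.89 TPM, a log2 fold change of 0.31 ± 0.14 (limma, adjusted p = 0.110). Protocadherin 12, which is found at junctions of endothelial cells, had 4.95, 5.41 and 5.57 TPM against 5.68, 5.07 and 6.25 TPM for pcdh12 (chr14:16308840-16328331). Its log2 fold change was 0.08 ± 0.12 on deposited TPM and -0.12 after rescaling.

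**Figure D2:**
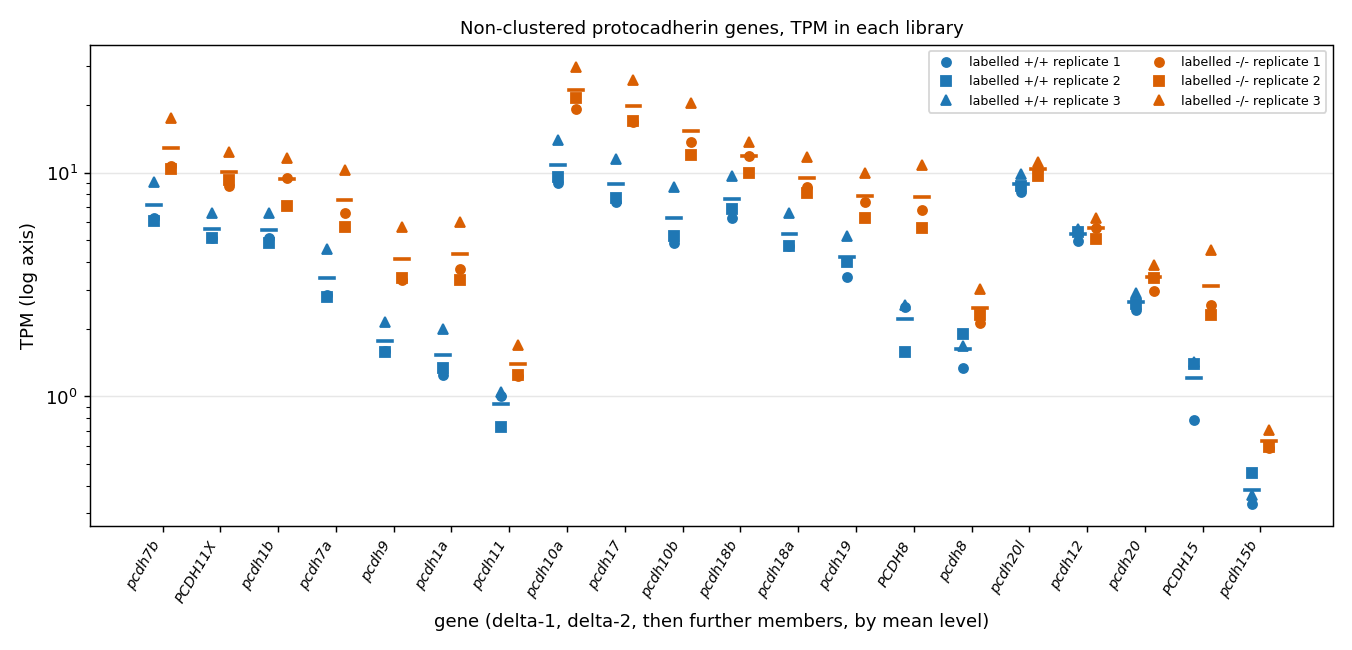
TPM of the 20 non-clustered protocadherin genes in each of the 6 libraries on a log axis, with horizontal bars at the group means. Blue marks libraries labelled +/+ and orange those labelled -/-, with a circle, square or triangle for replicate 1, 2 or 3. The 8 delta-2 and 7 delta-1 genes have all orange points above all blue points, while pcdh20l and pcdh12 overlap, and the triangles of replicate 3 are the highest point of most groups.

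Several called members lie near the mutated genes. In the deposited coordinates pcdh7a, pcdh18a and pcdh10a begin or end 0.65, 1.20 and 1.67 Mb from stim2a on chromosome 1. The gap between pcdh7b and stim2b on chromosome 7 was 0.885 Mb. The copies pcdh10b and pcdh18b on chromosome 14, which holds neither mutated gene, had log2 fold changes of 1.24 and 0.61 beside 1.08 and 0.78 for pcdh10a and pcdh18a. Whether sequence linked to either mutated gene contributed to the values of the nearby copies was not tested.

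The tandem array on chromosome 10 held 3 alpha members and 18 gamma members. Alpha records spanned chr10:21559605-21649172 and gamma records chr10:21650828-21820133, all on the plus strand. Of the gamma records 8 ended at position 21820057 and 5 at 21820133, where the shared constant exons of a gamma array would lie, so the records overlap and reads from shared exons can be split between them in a way not given in the sources used here. All 3 alpha and all 18 gamma records overlapped another member on the same strand, and the level of any single record is therefore uncertain.

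None of the 3 alpha members of chromosome 10 passed the test. The pcdh1a6 record had 2.31, 1.32 and 2.48 TPM in libraries labelled +/+ and 2.86, 3.91 and 12.1 TPM in those labelled -/-, a log2 fold change of 1.20 ± 0.46 (limma, adjusted p = 0.0728). Replicate 3 labelled -/- stood far above the other libraries, and without it the log2 fold change was 0.63. The pcdh1a3 record had 1.45, 1.40 and 1.82 TPM against 3.78, 2.41 and 1.66 TPM, a log2 fold change of 0.55 ± 0.24 (limma, adjusted p = 0.107). Here replicate 3 labelled -/- was the lowest of its group and lay inside the range labelled +/+, and without it the value was 0.78 and was called (limma, adjusted p = 0.0370). The pcdh1a4 record had 1.33, 2.61 and 3.27 TPM against 2.32, 3.29 and 2.58 TPM, with overlapping groups. Without replicate 3 of both groups, limma called pcdh1a3 at 0.87 (adjusted p = 0.0143) and pcdh1a6 at 0.77 (adjusted p = 0.0407), and pcdh1a4 stood at 0.45 (adjusted p = 0.218). Summed over the 3 records, the level was 5.09, 5.33 and 7.57 TPM against 8.96, 9.60 and 16.3 TPM. The ratio of group means was 1.94, or 1.55 without replicate 3 labelled -/-. Read from coverage on the TPM scale, the sum was 1.85, 1.88 and 2.52 against 4.34, 3.2 and 2.99, a ratio of 1.69. Replicate 3 labelled -/- was then the lowest of its group instead of the highest. With coverage in place of TPM, the log2 fold change of pcdh1a6 was 0.49 (limma, adjusted p = 0.142). Its mean level from coverage was 0.36, where the 0.5 added before the log lowers a fold change more.

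Gamma members of chromosome 10 had unlike fold changes. Of the 18, 4 were higher in libraries labelled -/- and 0 lower, beside 26.7% and 8.5% of all genes. The median log2 fold change of the 18 was 0.03, below the 0.19 of all genes. Summed, the 18 had 47.0, 41.3 and 55.9 TPM in libraries labelled +/+ and 47.9, 52.7 and 65.5 TPM in those labelled -/-. These sums overlapped between the groups, with a ratio of 1.15 on deposited TPM and 0.985 after rescaling.

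The 4 called gamma members were pcdh1g14, pcdh1g18, pcdh1g2 and pcdh1g13. The pcdh1g14 record (chr10:21726853-21729246) had 0.956, 0.884 and 0.811 TPM against 1.77, 1.97 and 2.18 TPM, a log2 fold change of 0.83 ± 0.13 (limma, adjusted p = 0.00839). Its 3 libraries labelled +/+ were tightly grouped, and the call was made under all 18 settings. The pcdh1g18 record (chr10:21737745-21820057) had 0.296, 0.550 and 0.628 TPM against 1.12, 1.42 and 1.68 TPM, a log2 fold change of 0.95 ± 0.18 (limma, adjusted p = 0.0142). The pcdh1g2 record (chr10:21656654-21820057) had 1.24, 0.934 and 1.13 TPM against 1.66, 2.09 and 2.19 TPM, a log2 fold change of 0.63 ± 0.14 (limma, adjusted p = 0.0208). None of these overlapped between the groups.

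The pcdh1g13 record (chr10:21722892-21725312) had 1.40, 1.24 and 1.52 TPM against 1.73, 2.59 and 2.38 TPM. Its log2 fold change was 0.52 ± 0.16 (limma, adjusted p = 0.0379) and 0.35 after rescaling (limma, adjusted p = 0.0909), so this call depended on the scaling. Both pcdh1g13 and pcdh1g14 are records of 2.4 kb that end before the shared end of the array.

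The gamma records of chromosome 10 with the highest TPM did not pass. The pcdh1g9 record (chr10:21701551-21820133) had 6.82, 5.18 and 8.05 TPM against 8.51, 8.65 and 10.7 TPM, a log2 fold change of 0.46 ± 0.17 (limma, adjusted p = 0.0696), and its groups did not overlap. The pcdh1g33 record (chr10:21783213-21820002) had 2.80, 4.03 and 8.21 TPM against 4.76, 6.09 and 9.33 TPM, a spread between replicates that exceeded the difference between the groups. The pcdh1g22 record (chr10:21730585-21820133) had 5.31, 4.44 and 5.62 TPM against 4.60, 4.63 and 5.44 TPM, with a log2 fold change of -0.06 ± 0.13. Read from coverage on the TPM scale, pcdh1g33 had a mean level of 5.87 and remained high, whereas pcdh1g9 at 0.768 and pcdh1g22 at 0.553 lay below called records such as pcdh1g13 at 1.81.

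Negative fold changes were seen for 8 of the 18 gamma members on deposited TPM and for 11 of 18 after rescaling. Rescaling puts the median of all genes at 0.00, so genes in general then lie about equally on either side of 0. The median of the 18 was then -0.16. The pcdh1g1 record (chr10:21650828-21820057) had 2.82, 2.59 and 3.10 TPM in libraries labelled +/+ and 2.14, 2.31 and 2.69 TPM in those labelled -/-. Its log2 fold change was -0.21 ± 0.13 (limma, adjusted p = 0.225) and became -0.40 after rescaling (limma, adjusted p = 0.0218). The pcdh1g30 record (chr10:21801030-21820133) had 3.67, 3.10 and 3.87 TPM against 2.64, 2.79 and 3.48 TPM, with -0.22 ± 0.14 (limma, adjusted p = 0.244) and -0.42 after rescaling (limma, adjusted p = 0.0249). On deposited TPM both records overlapped between the groups and neither was called.

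Remaining gamma records of chromosome 10 (pcdh1g3, pcdh1gb2, pcdh1gb9, pcdh1g26, pcdh1gc5, pcdh1gc6, pcdh1g29, pcdh1g31 and pcdh1g32) had log2 fold changes between -0.13 and 0.28, none called. The C-type records pcdh1gc5 and pcdh1gc6 stood at 0.13 and 0.02. All of these records overlapped between the groups.

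**Figure D3:**
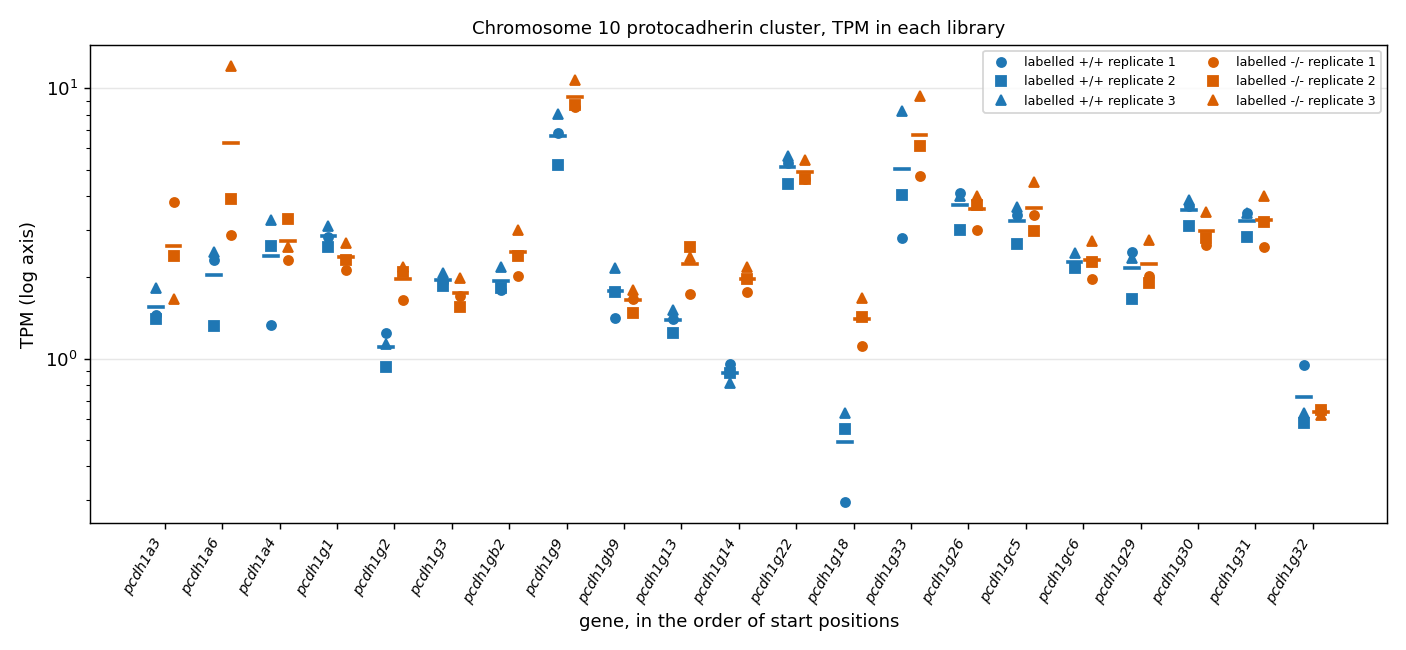
TPM of the 21 kept members of the chromosome 10 array in each library on a log axis, in the order of their start positions, with bars at the group means. Blue marks libraries labelled +/+ and orange those labelled -/-, with a symbol for each replicate. Points of pcdh1g2, pcdh1g13, pcdh1g14 and pcdh1g18 separate by colour, while most other gamma records have mixed colours and pcdh1g1 and pcdh1g30 have the orange mean below the blue.

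The array on chromosome 14 lies on the minus strand and gave a more uniform picture. Its 14 alpha records spanned chr14:2118775-2327853, and 8 of them shared the position 2123123 at their 3′ edge. All 14 overlapped another member on the same strand. Of the 13 kept, 8 were higher in libraries labelled -/- and 0 lower, beside 26.7% and 8.5% of all genes. After rescaling 4 were higher and 0 lower, beside 19.7% and 19.9%. All 13 had positive fold changes, with a median of 0.50 beside 0.19 over all genes. For 11 the groups did not overlap, with libraries labelled -/- higher, beside 36.6% of all genes. Overlapping records can share reads, so these are not counts of independent records. Together with the beta gene the 14 alpha records summed to 18.6, 17.8 and 19.9 TPM against 24.5, 30.7 and 39.1 TPM. The ratio was 1.67 on deposited TPM and 1.42 after rescaling.

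By TPM the highest alpha record was pcdh2ab9 (chr14:2118775-2285955), with 6.09, 6.13 and 4.56 TPM in libraries labelled +/+ and 6.65, 11.2 and 11.3 TPM in those labelled -/-. Replicate 1 labelled -/- was little above the range labelled +/+. The log2 fold change of pcdh2ab9 was 0.72 ± 0.22 (limma, adjusted p = 0.0376), with a limma adjusted p of 0.105 after rescaling. With coverage in place of TPM it was 0.52 (limma, adjusted p = 0.0513). The FPKM of this record over its coverage was nearly constant, at 7.55 to 7.64 times the common ratio of all genes. At the lower coverage level the 0.5 added before the log lowers the fold change more. Without replicate 3 of both groups the log2 fold change on TPM was 0.47 (limma, adjusted p = 0.13), and the call was made under only 7 of the 18 settings. The next in level, pcdh2ab8 (chr14:2123123-2327825), had 1.66, 1.94 and 2.16 TPM against 2.36, 2.75 and 3.90 TPM, a log2 fold change of 0.52 ± 0.18 that missed the threshold (limma, adjusted p = 0.0601). The pcdh2ab6 record (chr14:2123123-2206476) had 0.931, 0.953 and 1.24 TPM against 1.501, 1.68 and 2.01 TPM, a log2 fold change of 0.53 ± 0.15 (limma, adjusted p = 0.0296). All 3 of these records separated between the groups. Their order holds for TPM only: read from coverage on the TPM scale, the mean levels were 1.01 for pcdh2ab9, 0.272 for pcdh2ab8 and 1.38 for pcdh2ab6.

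The smallest p among the alpha records was that of pcdh2ab3 (chr14:2123123-2213660), with 0.527, 0.262 and 0.534 TPM against 0.863, 1.21 and 1.498 TPM and a log2 fold change of 0.84 ± 0.19 (limma, adjusted p = 0.0198). The pcdh2aa15 record (chr14:2123123-2267515) had 1.04, 0.965 and 1.06 TPM against 1.48, 1.59 and 1.94 TPM, with 0.50 ± 0.13 (limma, adjusted p = 0.0263). The pcdh2ab5 record (chr14:2123123-2209742) had 0.645, 0.695 and 0.745 TPM against 1.09, 1.07 and 1.48 TPM, with 0.51 ± 0.14 (limma, adjusted p = 0.0291). In these records too, each library labelled -/- lay above each labelled +/+.

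Another 3 alpha records, pcdh2ab12, pcdh2ab1 and pcdh2ab2, were called with log2 fold changes of 0.48, 0.48 and 0.49, and each lost its call after rescaling, at adjusted p-values of 0.0669, 0.0800 and 0.0513 in limma. Not called were pcdh2ab10 at 0.35, pcdh2aa1 at 0.32 and pcdha8l at 0.44. The pcdh2ac record (chr14:2123123-2163454) had 0.336, 0 and 0.662 TPM against 0.839, 0 and 1.65 TPM. Being listed at 0 in replicate 2 of both groups, it is described by its libraries alone.

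The beta gene pcdhb (chr14:2337973-2369849) had 2.49, 2.42 and 2.83 TPM in libraries labelled +/+ and 3.11, 3.44 and 5.89 TPM in those labelled -/-. The groups did not overlap, and replicate 3 labelled -/- stood well above the rest. The log2 fold change was 0.55 ± 0.22 (limma, adjusted p = 0.0807). Read from coverage on the TPM scale, its mean level was 0.286 and its log2 fold change was 0.24 (limma, adjusted p = 0.153). The ratio of group means was 1.61 from TPM and from coverage alike. At the lower coverage level the 0.5 added before the log lowers the fold change more.

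The record pcdh2g28 (chr14:1887677-2032753), the 1 gamma record of chromosome 14 in the tables, had the highest TPM of all members. It had 19.6, 18.9 and 30.4 TPM against 34.8, 37.7 and 51.6 TPM, and every library labelled -/- was above every library labelled +/+. The log2 fold change was 0.85 ± 0.21 (limma, adjusted p = 0.0243), 0.63 after rescaling (limma, adjusted p = 0.0190), and 0.64 when coverage was used in place of TPM (limma, adjusted p = 0.0355). Its ratio of FPKM to coverage was 17.6 to 18.1 times the common ratio of all genes, the highest of the members, so its rank in level depends on which deposited quantity is read. From coverage on the TPM scale its mean level was 1.79, below 27 other members.

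**Figure D4:**
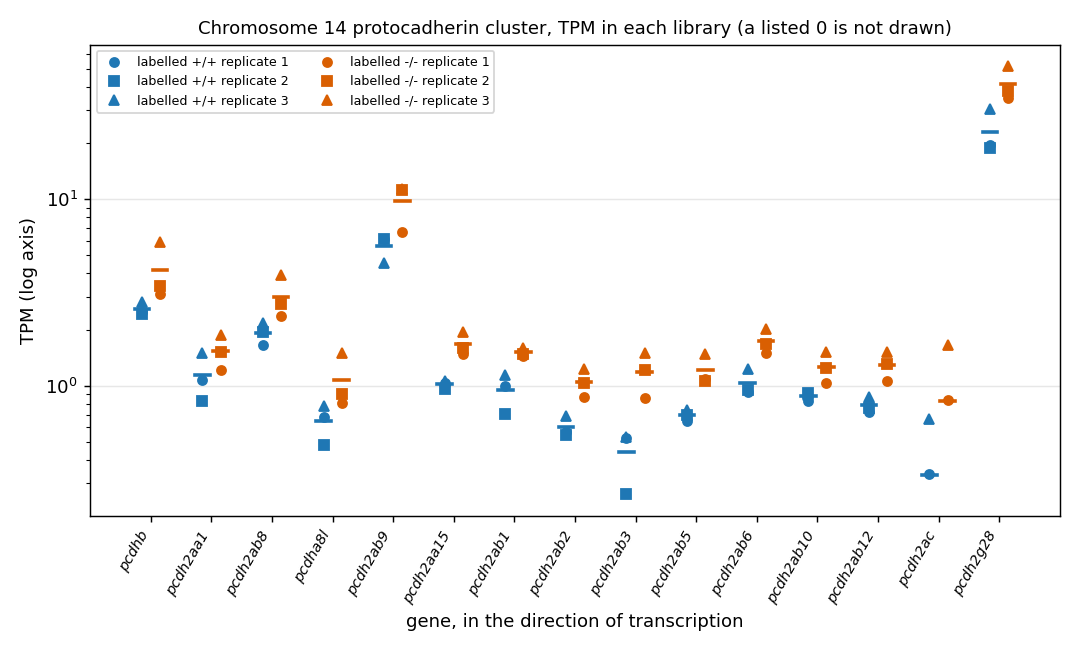
TPM of the 15 kept members of the chromosome 14 array in each library on a log axis, in the direction of transcription, with bars at the group means. Blue marks libraries labelled +/+ and orange those labelled -/-, with a symbol for each replicate; values listed at 0 (pcdh2ac in replicate 2 of both groups) are not drawn. Orange points lie above blue points for 13 of the 15 records, the exceptions being pcdh2aa1 and pcdh2ac, and pcdh2g28 has a higher TPM than any alpha record.

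Taking the family as a whole, the make-up of protocadherin RNA differed between the groups, and this measure is independent of library scaling. The 57 members summed to 169.6, 165.9 and 225.9 TPM in libraries labelled +/+ and 268.6, 274.8 and 389.6 TPM in those labelled -/-, a ratio of 1.66. Gamma members of chromosome 10 held 27.7%, 24.9% and 24.8% of that sum in libraries labelled +/+ and 17.8%, 19.2% and 16.8% in those labelled -/-, with no overlap. The 5 further members also held less, at 9.83%, 11.2% and 8.91% against 8.27%, 7.63% and 6.81%, with no overlap. Delta-2 members held 23.3%, 25.1% and 26.5% against 32.2%, 30.1% and 32.2%, also with no overlap. Delta-1 members held 13.7%, 13.5% and 14.2% against 16.3%, 14.7% and 16.7%, again with no overlap. The chromosome 14 array as a whole held 22.5%, 22.1% and 22.3% against 22.1%, 24.9% and 23.3%, and here the groups overlapped. Read from coverage the chromosome 10 gamma share was 28.2%, 26.1% and 25.9% against 18.3%, 20.1% and 18.1%, and the delta-2 share 29.2%, 31.5% and 33.7% against 39.2%, 38.3% and 40.5%. The share of the further members from coverage was 15.0%, 16.2% and 13.3% against 12.1%, 11.4% and 10.1%. For the chromosome 14 array the share from coverage was far smaller than from TPM, at 9.47%, 8.44% and 8.58% against 8.66%, 9.66% and 9.16%. These groups overlapped as well, and the size of this array's share depends on which deposited quantity is read. These shares are descriptions of the 6 libraries and were not tested.

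**Figure D5:**
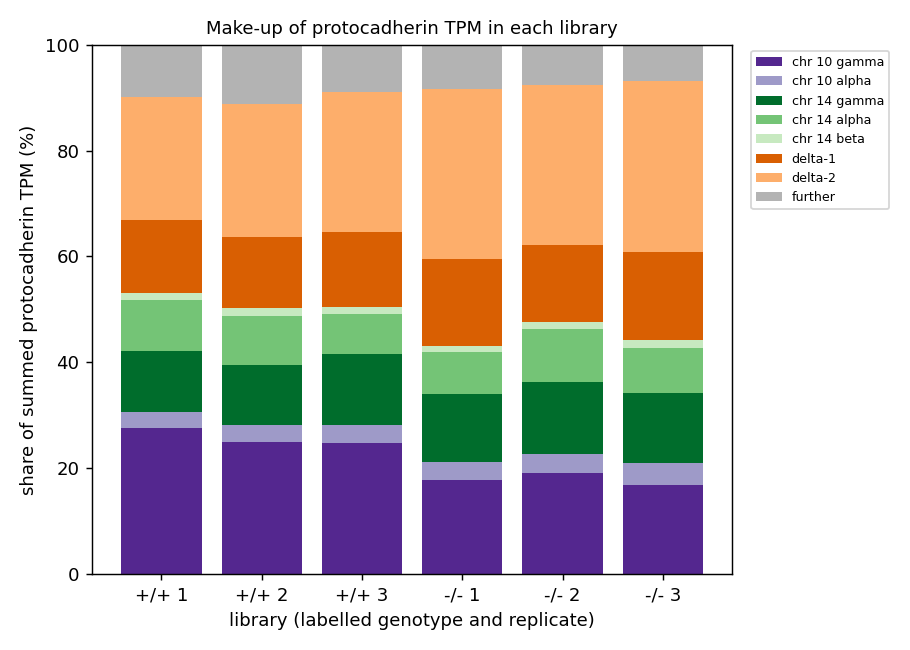
Share of the summed protocadherin TPM held by each subgroup in each of the 6 libraries, in percent. Each bar is 1 library, and its segments are the subgroups from the chromosome 10 gamma array at the bottom to the further members at the top. The bottom segment lies between 24.8% and 27.7% in libraries labelled +/+ and between 16.8% and 19.2% in those labelled -/-, and the delta-2 segment between 23.3% and 26.5% against 30.1% and 32.2%.

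Markers of neurons moved with the protocadherins. Of 20 neuron markers 17 were higher in libraries labelled -/- and 0 lower, with a median log2 fold change of 1.03, beside the 26.7% and 8.5% of all genes. After rescaling 17 were higher and 2 lower, beside 19.7% and 19.9% of all genes. Without replicate 1 or 2 labelled +/+ limma called 1 or 0 of the 20 higher, beside 1.69% or 1.26% of all genes. The summed level of the 20 markers ranged from 728.7 to 993.6 TPM in libraries labelled +/+ and from 1150 to 1713 TPM in those labelled -/-. The ratio was 1.65, or 1.41 after rescaling. The synaptic genes snap25b (log2 fold change 1.21 ± 0.21), sypa (0.89 ± 0.16) and sv2a (1.27 ± 0.24) had limma adjusted p-values from 0.0121 to 0.0142. In bulk RNA of whole larvae, a difference in the number of cells of a type and a difference in RNA per cell cannot be told apart. The part of neuron content in the protocadherin values was not tested.

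The protocadherins were also set against the summed TPM of the neuron markers within each library. By this measure the family total was steady, while some of its parts differed between the groups and others overlapped. All members amounted to 23.3, 22.5 and 22.7 TPM per 100 TPM of neuron markers in libraries labelled +/+ and 22.6, 23.9 and 22.7 in those labelled -/-. Delta-2 members had 5.41, 5.65 and 6.03 against 7.28, 7.20 and 7.33 TPM per 100, and delta-1 members had 3.18, 3.05 and 3.23 against 3.69, 3.51 and 3.81. Both groups of genes were higher in every library labelled -/- by this measure. In the summed TPM the abundant markers weigh most, and that sum had a ratio of 1.65. Taken gene by gene, the 20 markers had a median log2 fold change of 1.03, beside 0.95 for delta-2 and 0.79 for delta-1 members. The higher delta values and the steady family total therefore depend on how the markers are combined. Gamma members of chromosome 10 had 6.45, 5.61 and 5.63 against 4.03, 4.58 and 3.82 TPM per 100, lower in every library labelled -/-. The 5 further members were lower in every library labelled -/- too, at 2.29, 2.53 and 2.02 against 1.87, 1.82 and 1.55. Chromosome 14 alpha and beta members, at 2.56, 2.41 and 2.00 against 2.06, 2.67 and 2.28, overlapped between the groups. So did chromosome 10 alpha members, at 0.699, 0.724 and 0.762 against 0.754, 0.835 and 0.952. The chromosome 14 gamma record also overlapped, at 2.69, 2.56 and 3.06 against 2.93, 3.28 and 3.01. Read from coverage for members and markers alike, this record was far lower, at 0.242, 0.23 and 0.267 against 0.251, 0.281 and 0.249 per 100. It overlapped again, and the other groups of genes kept their direction or their overlap.

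Markers of other cell types differed as well, beside 26.7% of all genes called higher and 8.5% lower. Myelin markers were higher for 7 of 9 genes and photoreceptor markers for 6 of 8, with summed ratios of 1.44 and 1.48. Endothelial markers were higher for 4 of 5 genes with a summed ratio of 1.53, beside which pcdh12 of endothelium had a ratio of group means of 1.07. Radial glia and astroglia had 3 of 10 markers higher and 3 lower, and markers of dividing cells 2 of 10 higher and 0 lower. Keratinocyte markers were lower for 5 of 8 genes and higher for 0, with sums from 17460 to 19530 TPM against 14300 to 15340 TPM. Skeletal muscle had 3 of 9 markers higher and 1 lower, liver 1 of 6 higher and 2 lower, and exocrine pancreas 1 of 3 in each direction. Without replicate 1 or 2 labelled +/+ the counts higher were 1 or 1 for myelin, 3 or 2 for photoreceptors and 0 or 1 for endothelium, and the count lower was 2 or 1 for keratinocytes. Of all genes 1.69% or 1.26% were called higher without replicate 1 or 2 labelled +/+, and 1.64% or 1.5% lower. After rescaling the counts in the same order were 6, 5 and 3 higher and 5 lower, beside 19.7% and 19.9% of all genes. Myelin then also had 1 marker lower, and radial glia and astroglia had 3 higher and 4 lower. Skeletal muscle then had 0 in either direction. No marker of any list was at 0 in all libraries.

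Replicate 3 was the highest library for most members. The level in replicate 3 over the mean of replicates 1 and 2 had a median of 1.34 in libraries labelled +/+ and 1.44 in those labelled -/- over the 20 non-clustered members, and 19 of them exceeded 1 in both groups. Over the 36 clustered members the medians were 1.19 and 1.29, and over all genes above 0 in every library 1.16 and 1.11. Without replicate 3 of both groups, limma called 17 clustered and 14 non-clustered members higher and 0 lower, beside 36.1% and 8.65% of all genes. Taking the replicate number as a block, limma called 19 clustered and 17 non-clustered members higher and 0 lower, beside 40.3% and 12.4% of all genes. With the block and rescaling together it called 8 clustered members higher and 3 lower and 14 non-clustered members higher and 0 lower, beside 26.0% and 25.6% of all genes. The calls gained under the block were pcdh1a6, pcdh1g9, pcdh1g33, pcdh2ab8, pcdha8l and pcdhb in the arrays, with adjusted p-values from 0.00911 to 0.0386, and pcdh8, pcdh11 and pcdh20 outside them, with adjusted p-values of 0.0176, 0.0321 and 0.0315.

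Relatives of the protocadherins in the cadherin superfamily, with the catenins, gave 28 of 42 genes higher and 0 lower, beside 26.7% and 8.5% of all genes, with a median log2 fold change of 0.65 beside 0.19. After rescaling the count was 24 higher and 1 lower, beside 19.7% and 19.9% of all genes. Without replicate 1 or 2 labelled +/+ it was 1 higher, beside 1.69% or 1.26% of all genes. The smallest p-values were those of ctnna2, which encodes the neural alpha-catenin that ties cadherins to actin (1.39 ± 0.19), clstn3, a calsyntenin of synapses (1.49 ± 0.26), ret, the receptor tyrosine kinase with cadherin-like domains (1.10 ± 0.21), and cdh22, a classical cadherin of brain (0.94 ± 0.18). Their adjusted p-values in limma lay between 0.00666 and 0.0141. As an example of the levels, ctnna2 had 5.39, 4.66 and 6.78 TPM in libraries labelled +/+ and 13.6, 13.2 and 20.2 TPM in those labelled -/-. With coverage in place of TPM the log2 fold change of ctnna2 was only 0.58 (limma, adjusted p = 0.0337). The values from coverage were 1.42 for clstn3, 1.09 for ret and 0.94 for cdh22. The size of the ctnna2 change therefore depends on which deposited quantity is read.

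Genes that set promoter choice in the arrays, by cohesin, CTCF looping or DNA methylation, gave 14 of 25 higher and 0 lower, beside 26.7% and 8.5% of all genes, with a median of 0.48 beside 0.19. Among them were rad21b, a cohesin subunit (log2 fold change 1.14 ± 0.21), dnmt1, the maintenance DNA methyltransferase (0.92 ± 0.20), and stag2a, another cohesin subunit (0.63 ± 0.15). Their adjusted p-values in limma lay between 0.0130 and 0.0228. After rescaling the count was 9 higher and 1 lower, beside 19.7% and 19.9% of all genes. Without replicate 1 or 2 labelled +/+ limma called 0 in either direction, beside 1.69% or 1.26% of all genes higher and 1.64% or 1.5% lower.

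Cytoplasmic partners, the WAVE complex and the kinases downstream of protocadherin tails, gave 19 of 32 higher and 0 lower, beside 26.7% and 8.5% of all genes, with a median of 0.52 beside 0.19. After rescaling the count was 15 higher and 2 lower, beside 19.7% and 19.9% of all genes. Without replicate 1 or 2 labelled +/+ it was 0 or 1 higher, beside 1.69% or 1.26% of all genes. The smallest p-values belonged to the WAVE3 genes wasf3a (log2 fold change 0.92 ± 0.15) and wasf3b (1.09 ± 0.18), and to cyfip2 (1.05 ± 0.18) and abi3a (0.81 ± 0.14), which encode subunits of the same complex or its family. Their adjusted p-values in limma lay between 0.0101 and 0.0125. With coverage in place of TPM the log2 fold changes were 0.92, 1.09, 0.97 and 0.62 in the same order. That of abi3a then had an adjusted p of 0.0489 in limma. The summed level of the whole list overlapped between the groups, at 705.7 to 861.0 TPM against 803.8 to 994.0 TPM, with a ratio of group means of 1.18, or 1.0 after rescaling.

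The authors' deposited table holds a test of the same libraries with no statement of which group is the numerator. Its sign for stim2a was negative, at -1.73 ± 0.18, opposite to the labelled -/- minus labelled +/+ direction used above. In the authors' deposited table, of the 56 kept members, 24 had a negative log2 fold change with an adjusted p under 0.05, beside 18.4% of the 27373 genes with an adjusted p, and 2 had a positive one, beside 13.5%. The 2 were pcdh1g1 at 0.44 ± 0.13 (authors' deposited table, adjusted p = 0.00836) and pcdh1g30 at 0.44 ± 0.13 (authors' deposited table, adjusted p = 0.0119), the records called lower after rescaling. The authors' deposited table gave mean normalized counts from 68.5 for pcdh15b to 6812 for pcdh2g28, so that counting error weighs most on the low records.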

How the data were processed

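RNA of 6 samples, 3 per labelled genotype, was sequenced as stranded paired reads of 75 bases, per the labels' protocols. Groups and replicate numbers came from the labels; the deposited tables' names run against the labels and were not used. Per the submitters' processing notes, the tools were STAR 2.5.3a, StringTie 1.3.3b and DESeq2 1.16.1; danRer11 and hg38 are the builds named, with no role given. The deposited abundance tables hold, per the file headers, coverage (a signal per base), FPKM and TPM, with coordinates printed as deposited. The authors' deposited table holds p-values, a Wald score, a log2 fold change with its error and, as a signal, the mean normalized count.

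Of 32520 genes, 29201 had an Ensembl symbol. For 11 members with an upper-case family symbol the copy was named through the RefSeq table of GRCz12tu, used for names only. The files hold no counts per sample, so limma 3.58.1 (R 4.3.3; lmFit, eBayes with trend) was fitted to log2(TPM + 0.5) over the 23758 genes with 0.2 TPM in at least 3 libraries, with Benjamini-Hochberg adjustment; it was tested on simulated data. Absolute depth is not known from TPM; coverage per FPKM, a relative depth, was 4.64 to 5.93. Alternatives were pseudocounts of 0.1 and 1, other filters, median gene ratio and quantile scaling, FPKM, a replicate block and leaving out each library; coverage over relative depth and leaving out replicate 3 of both groups were chosen after seeing the data. Deviations from the group means of same-numbered samples correlated at 0.20, 0.15 and 0.42. These exceed the minimum of 0.1 for pairing, though replicate 1 labelled +/+ correlated more with replicate 2 labelled -/- (0.23), and no label names a shared clutch.

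Members, gene lists and marker lists were chosen with earlier results of these data known. All 6 values are given by rule for called or abundant non-clustered members and, in each subfamily, for the 3 highest in mean TPM and the 3 with the smallest p. For the 3 gene lists and the neuron markers the 4 genes with the smallest p are named, apart from some that are not reported here. Levels were also read from coverage over relative depth, put on the TPM scale. Other members were described as well. Lists are described by counts and medians and were not tested. Other tools were Python 3.11.15, pandas 2.3.3 and SciPy 1.17.1.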

Additional observations from a re-analysis of the deposited data

How the results depend on the processing

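With pseudocounts of 0.1 and 1 every member and named list gene kept its direction and its call. The count of clustered members called higher, 13 on deposited TPM, was 8 under median gene ratio scaling, 8 under quantile scaling and 8 under the replicate block with median gene ratio. The count called lower was 2, 4 and 3. Of all genes 19.7%, 18.3% and 26.0% were called higher under these settings, and 19.9%, 18.6% and 25.6% lower. The median of clustered members was 0.23 under quantile scaling. Cadherin relatives called lower numbered 1 under median gene ratio, with and without the block. For the looping list the count higher was 6 with no filter and 9 under median gene ratio; the count lower was 1 under median gene ratio, quantile scaling, FPKM, the replicate block and coverage, and 2 under the block with median gene ratio. For the WAVE list the count higher was 12 with no filter; the count lower was 2 under median gene ratio, 1 under quantile scaling, FPKM, the replicate block and coverage, and 3 under the block with median gene ratio. With no filter 16.4% of all genes tested were called higher, beside 26.7% in the main fit. The share called lower was 13.1% with FPKM, 12.4% under the replicate block and 9.07% with coverage. The cause was not tested. Whether the block is right is not given by the labels; on deposited TPM it gained the member calls named in the report and lost none. With median gene ratio it also moved pcdh1g3 to a lower call (adjusted p from 0.0501 to 0.0453), pcdh1a6 to a higher call (0.0808 to 0.0472) and pcdh2aa15 out of its call (0.0470 to 0.0528), all in limma.

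Leaving out 1 library, or replicate 3 of both groups, gave 1 to 17 clustered and 1 to 14 non-clustered members higher, with 0 lower. The medians were 0.27 to 0.53 and 0.63 to 0.95. Over the same fits 1.26% to 36.1% of all genes were called higher and 1.5% to 8.65% lower. List counts higher ranged over 1 to 35 for cadherin relatives (34 among single libraries), 0 to 20 for the looping list and 0 to 22 for the WAVE list. The stim2a value ranged from 1.06 to 1.23 and that of stim2b from 0.84 to 1.03. The ratio of summed TPM ranged from 1.55 to 2.23 for chromosome 10 alpha, 1.05 to 1.25 for chromosome 10 gamma, 1.47 to 1.86 for chromosome 14 alpha and beta, 1.58 to 2.15 for chromosome 14 gamma and 1.62 to 2.12 for non-clustered members. The lowest counts came without replicate 1 or 2 labelled +/+.

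Signs that reversed belonged to uncalled members with values near 0. Under median gene ratio, with and without the block, the values were -0.07 for pcdh1gc5, -0.17 for pcdh1gc6, -0.15 for pcdh1g29, -0.0032 for pcdh20l and -0.12 for pcdh12. Under quantile scaling they were -0.07 for pcdh1a4, -0.0048 for pcdh1gb2, -0.18 for pcdh1gc5, -0.26 for pcdh1gc6, -0.25 for pcdh1g29, -0.06 for pcdh20l and -0.23 for pcdh12, and with FPKM -0.06 for pcdh1gc6, -0.04 for pcdh1g29 and -0.0081 for pcdh12. Over the left-out libraries, pcdh1a4 ranged from -0.10 to 0.43, pcdh1gb9 from -0.20 to 0.04, pcdh1g22 from -0.15 to 0.0058, pcdh1g26 from -0.17 to 0.06, pcdh1gc5 from -0.02 to 0.25, pcdh1gc6 from -0.08 to 0.11 (-0.03 without replicate 3 of both groups), pcdh1g29 from -0.11 to 0.12, pcdh1g31 from -0.14 to 0.13 and pcdh1g32 from -0.17 to 0.04.

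Overlapping records limit what single array members show, and TPM gives no depth per sample.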
